A study of Mus musculus with 4 samples.

Results

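Mitosis and G2/M genes are the transcripts that a dividing cell makes from the end of DNA replication to cytokinesis, and 37 of them were read by name from a bulk RNA-seq table of 55399 mouse genes. The genes were listed by function, with earlier results of these data known. The cells came from bone marrow and were labelled Lsk, the usual name for lineage-negative, Sca-1-positive, Kit-positive marrow cells that include haematopoietic stem cells. There were 2 libraries of genotype Ppm1bfl/fl (Ppm1b alleles flanked by loxP sites) and 2 of genotype Ppm1bCKO (conditional knockout), the phosphatase gene Ppm1b being the one targeted. The sources used here give neither the Cre line nor the age of the mice, and no treatment was labelled. Whether the replicates of a genotype are separate animals is not said, and p-values therefore cover the spread among the 4 libraries alone. The series title links Ppm1b to stem cell self-renewal, and the comparison asks whether transcripts of dividing cells differed with the genotype.

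Entry into mitosis is driven by CDK1 bound to cyclin A or cyclin B. The spindle assembly checkpoint then holds the anaphase-promoting complex inactive until kinetochores are attached to spindle microtubules, after which CDC20 activates the complex and the chromatids part. The genes of these proteins are switched on together late in the cycle by the MuvB complex with B-MYB and FOXM1, which acts through a promoter element named CHR (cell cycle genes homology region), often beside CCAAT boxes bound by NF-Y. In marrow such transcripts come mainly from committed progenitors and precursors, while most haematopoietic stem cells are quiescent.

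Promoter windows from RefSeq (GRCm38.p6, 250 bases before to 50 after a transcript start) were matched for 30 of the 37 genes, and Foxm1, Cdc25c, Dlgap5, Kif20a, Aurkb, Ccna2 and Tpx2 were not matched. A CHR core, written here as TTTGAA or TTCGAA on either strand, occurred in 23 of the 30 windows (76.7%), against 19.2% of all 32851 windows in the table. A CCAAT box on either strand also occurred in 23 (76.7% against 37.4%), and 20 windows held both (66.7% against 7.52%). In 21 genes a CHR core began within 50 bases of the start, and in 1 gene the motifs shared a base. The stretches below come from 1 gene each of mitotic entry, anaphase, spindle motors and chromosome structure, and from Mki67. They lie before the start and outside annotated exons, read 5′ to 3′ on the gene's strand, and capitals mark each CHR core and CCAAT box, in either orientation.
Cdk1 (chr10:69352939-69353062, minus strand): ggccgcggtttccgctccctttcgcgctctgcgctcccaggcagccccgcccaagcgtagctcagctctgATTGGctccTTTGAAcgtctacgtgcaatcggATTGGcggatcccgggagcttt
Cdc20 (chr4:118437353-118437493, minus strand): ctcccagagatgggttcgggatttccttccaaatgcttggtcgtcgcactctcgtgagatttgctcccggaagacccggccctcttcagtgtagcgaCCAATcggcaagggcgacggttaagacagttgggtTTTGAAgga
Kif11 (chr19:37376232-37376381, plus strand): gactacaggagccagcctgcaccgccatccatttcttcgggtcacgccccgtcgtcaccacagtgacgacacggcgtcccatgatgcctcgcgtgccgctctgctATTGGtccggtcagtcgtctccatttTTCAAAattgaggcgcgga
Top2a (chr11:99024200-99024339, minus strand): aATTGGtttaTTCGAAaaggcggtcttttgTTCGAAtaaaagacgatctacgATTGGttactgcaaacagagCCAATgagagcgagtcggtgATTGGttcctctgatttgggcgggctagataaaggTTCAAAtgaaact
Mki67 (chr7:135716451-135716529, minus strand): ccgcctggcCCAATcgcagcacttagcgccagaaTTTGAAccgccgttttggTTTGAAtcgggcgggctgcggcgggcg
Each of the stretches above holds both motifs. In the genotype comparison described next, 0 of the 37 genes were called. There the 23 genes with a CHR core had a median log2 fold change of 0.04 (range -0.31 to 0.32). The 7 matched genes without one had a median of 0.19 (range -0.13 to 0.33). A link between motif and fold change was not tested.

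The depth ran from 22393973 to 30045382 counts per library. Levels are given as CPM, counts scaled to library size and corrected for library composition. Ppm1b itself had 80.8 and 82.5 CPM in Ppm1bfl/fl, against 84.3 and 121 CPM where the label was Ppm1bCKO. It was thus not lower under the knockout label (log2 fold change 0.33 ± 0.20, edgeR adjusted p = 0.717), and as a count over all exons can hold reads from outside a deleted part, it does not check the labels. Ppm1bCKO is used below as a label, and every direction rests on it. Counts of 4 Y-linked genes summed to 5870 to 6396 in 3 libraries and to 2 in Ppm1bCKO replicate 2. The Ppm1bCKO libraries thus differed from each other in Y-linked reads, and replicate 2 also differed from both Ppm1bfl/fl libraries. The part of this difference in the mitotic levels was not tested. The 10 markers of Lsk cells and stem cells were all detected and summed to 626 and 510.4 CPM in Ppm1bfl/fl, against 529 and 469 CPM in Ppm1bCKO. Their levels were uneven. In Ppm1bfl/fl, Kit had 228 and 194 CPM, Ly6a, the gene of Sca-1, 22.2 and 18.3 CPM, and Mecom 3.12 and 0.862 CPM. Markers of mature cells were also detected in all libraries. The 8 mature neutrophil markers summed to 4417 and 4269 CPM in Ppm1bfl/fl and 4445 and 5284 CPM in Ppm1bCKO. The 8 plasma cell markers summed to 12953 to 21610 CPM in Ppm1bfl/fl and 3997 to 5378 CPM in Ppm1bCKO. Of these, 1 was called, Igha, where 0.372% of all genes tested were. Igha, Igkc and Jchain carried most of the sums, with 10296, 8609 and 2448 CPM in Ppm1bfl/fl replicate 1. All 8 log2 fold changes were negative, from -2.24 for Igha to -0.01 for Xbp1. The values below thus describe all cells collected, and in such bulk libraries a change in the number of dividing cells and a change in RNA per dividing cell cannot be told apart.

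All 37 genes were well expressed and passed the filter on low counts. Per length, Mki67, whose protein Ki-67 coats mitotic chromosomes and marks cycling cells, had the highest mean in Ppm1bfl/fl, at 130.0 and 170.2 CPM per kilobase of exon in Ppm1bfl/fl and 149.7 and 92.4 in Ppm1bCKO. In Ppm1bfl/fl it was followed by the cyclin gene Ccnb2, with a mean of 101.1, and by Top2a, which encodes the topoisomerase that untangles sister chromatids, at 83.1. In Ppm1bCKO replicate 2, Ccnb2 (120.1) and Ube2c (102.2) lay above Mki67, and by the Ppm1bCKO mean Ube2c (86.6) and Cdc20 (85.7) lay above Top2a (83.7). The order also depends on the length used: per kilobase of principal transcript, Ube2c had the highest Ppm1bfl/fl mean (187), ahead of Birc5 (167) and Mki67 (150.1). By exonic length, Cdc25c, a phosphatase gene that activates CDK1, was the least abundant, with means of 5.25 and 5.46. Neighbours in this order often lay within each other's spread: the 4 libraries of Cdc20 and of Top2a overlapped.

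**Figure D1:**
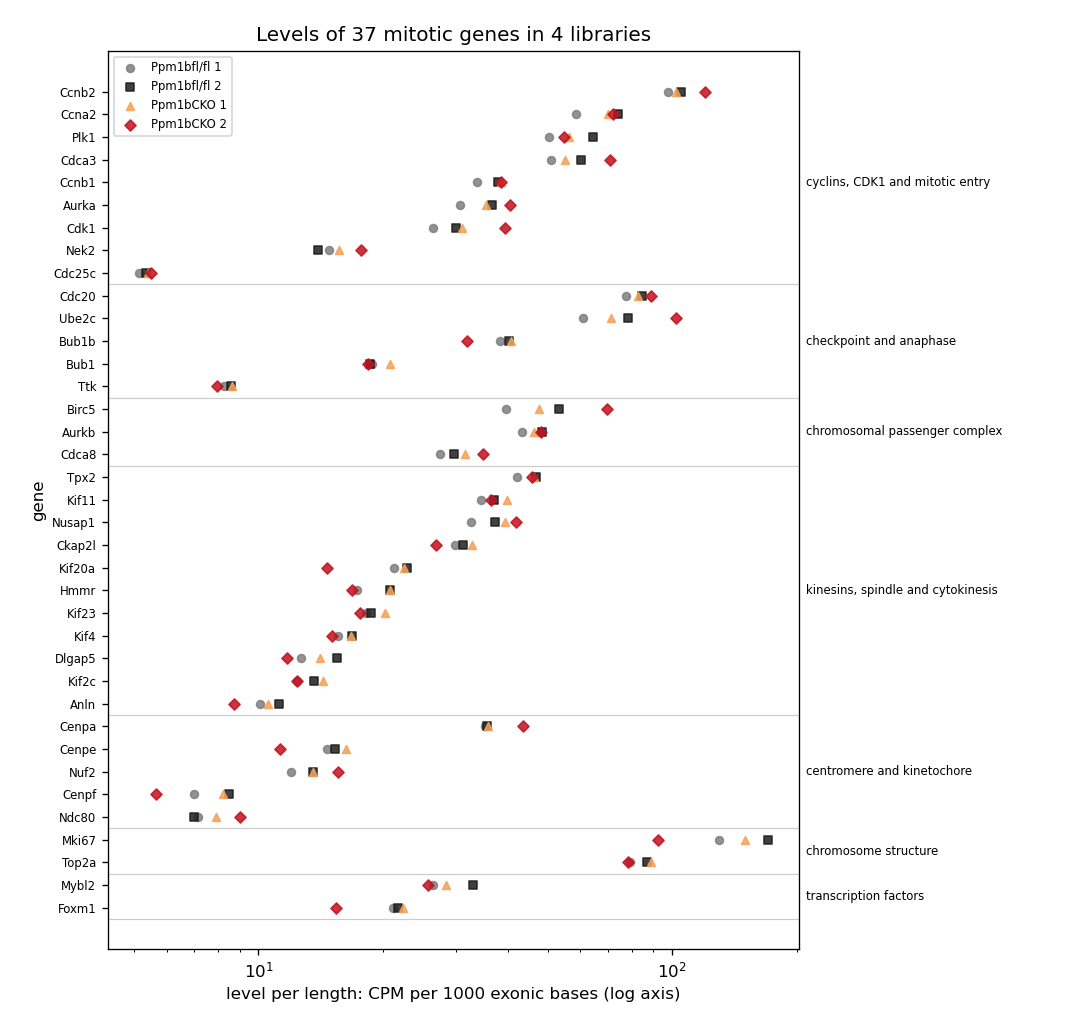
Levels of 37 mitotic genes in CPM per kilobase of exon (log axis) in each of 4 libraries, ordered by function and by the Ppm1bfl/fl mean. By the Ppm1bfl/fl mean Mki67 and Ccnb2 lie highest and Cdc25c lowest, and for 30 of 37 genes the red diamond of Ppm1bCKO replicate 2 lies at one end of the row.

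No mitotic gene passed the test of genotype. Over all genes, edgeR's quasi-likelihood test called 61 of 16393 (0.372%) at a Benjamini-Hochberg adjusted p under 0.05, and it called 0 of the 37, neither higher in Ppm1bCKO (0.061% of all genes) nor lower (0.311%). Their edgeR adjusted p ran from 0.717 to 0.987, and 0 of 37 had an unadjusted p under 0.05, against 6.44% of all genes tested. DESeq2 and limma-voom also called 0. Without Ppm1bCKO replicate 1, which leaves replicate 2 alone for that genotype, edgeR called 6 of the 37 (Cdk1 and Ube2c higher, Kif20a, Cenpe, Mki67 and Foxm1 lower) and 19.4% of all genes. The largest fold changes rested on replicate 2: without it, Birc5 went to 0.034, Ube2c to 0.026, Cdk1 to 0.14 and Mki67 to -0.0049, and without replicate 1 they were 0.58, 0.55, 0.49 and -0.70. Log2 fold changes of Ppm1bCKO over Ppm1bfl/fl ran from -0.31 to 0.33, with 23 positive and 14 negative, and their median was 0.05, against -0.003 over all genes tested. The standard errors ran from 0.16 to 0.27. Every 95% interval held 0 and lay inside a 2-fold change in either direction, and 25 of the 37 lay inside 1.5-fold, so smaller differences in either direction were not excluded by these 4 libraries. Both Ppm1bCKO libraries lay above both Ppm1bfl/fl libraries for 8 of 37 genes (20.6% of all genes tested), namely Cdk1, Ccnb1, Cdc25c, Nek2, Cdca8, Nusap1, Cenpa and Ndc80, and below them for 0 of 37 (also 20.6% of all genes tested).

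**Figure D2:**
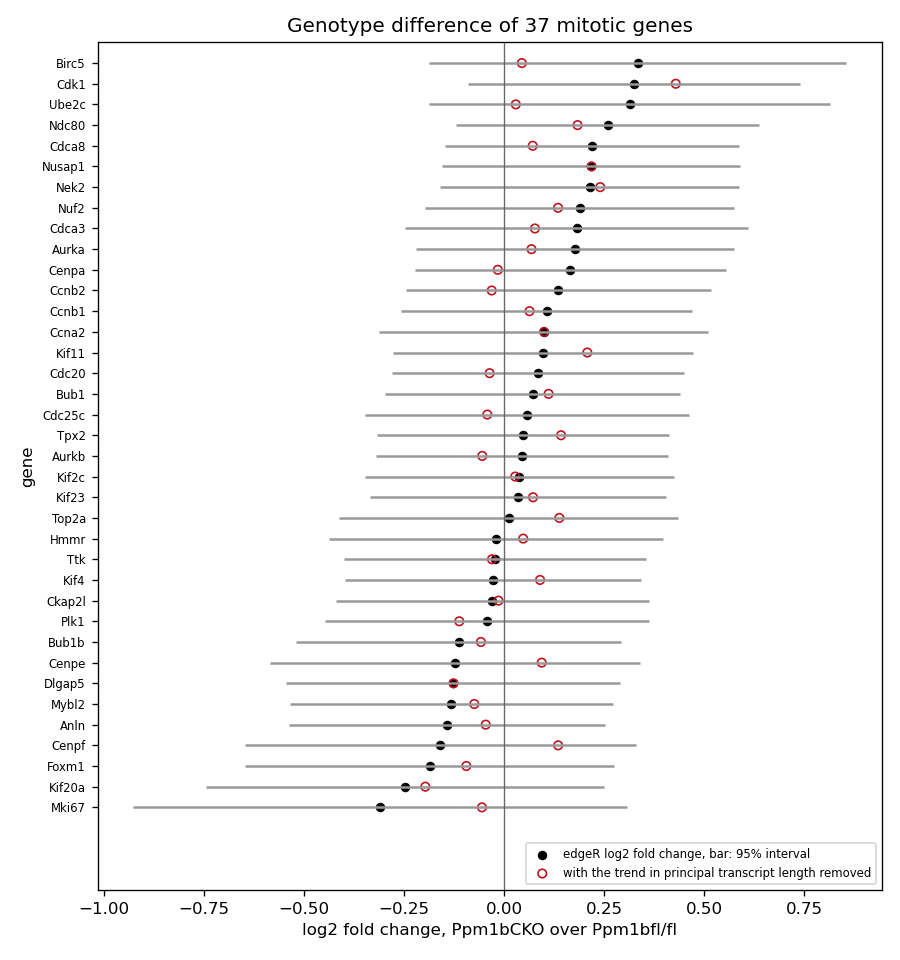
Log2 fold change of each of the 37 genes (black, with 95% interval) and its value after each library's trend with principal transcript length was removed (red circles). Every interval crosses 0, and the ends of the list, Birc5 and Mki67, move to 0.04 and -0.06 with the trend removed.

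Cyclin, CDK1 and mitotic entry genes had mostly positive fold changes, none of which passed. Of 9 genes, 8 were positive, with a median log2 fold change of 0.14. Cdk1 (chromosome 10, 69335146 to 69352938, mm10), the kinase gene of mitotic entry, had 130.4 and 148 CPM in Ppm1bfl/fl, and 153 and 195 CPM in Ppm1bCKO. Both values of Ppm1bCKO were above those of Ppm1bfl/fl, and replicate 2 was the highest (log2 fold change 0.32 ± 0.18, edgeR adjusted p = 0.717). Ccnb1, which encodes cyclin B1 (chromosome 13, 100778650 to 100786570), stood at 143 and 159.6 CPM against 163 and 162 CPM, a narrow range with only a small gap between genotypes (0.11 ± 0.16). Plk1 encodes Polo-like kinase 1, which promotes CDK1 activation and spindle assembly (chromosome 7, 122159439 to 122169873). It stood at 111 and 141 CPM in Ppm1bfl/fl with both Ppm1bCKO libraries, at 124 and 121 CPM, between them (-0.04 ± 0.18). The remaining genes Ccna2, Ccnb2, Aurka, Nek2, Cdca3 and Cdc25c had log2 fold changes from 0.06 to 0.21.

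None of the 5 checkpoint and anaphase genes passed, and 3 log2 fold changes were positive and 2 negative. Ube2c, the ubiquitin-conjugating enzyme of the anaphase-promoting complex (chromosome 2, 164769898 to 164778822), had 159 and 204 CPM in Ppm1bfl/fl and 185 and 266 CPM in Ppm1bCKO. Replicate 1 of Ppm1bCKO lay between the Ppm1bfl/fl libraries and replicate 2 above both (0.31 ± 0.22). Cdc20, the activator of the complex (chromosome 4, 118432901 to 118437352), stood at 144 and 158 CPM against 154 and 166 CPM, with overlapping groups (0.08 ± 0.16). Bub1b, whose product BUBR1 inhibits the complex, stood at 164 and 172 CPM against 174 and 136 CPM, so that the Ppm1bCKO libraries lay on both sides of Ppm1bfl/fl (-0.11 ± 0.18). The checkpoint kinase genes Bub1 and Ttk had log2 fold changes of 0.07 and -0.02.

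The chromosomal passenger complex corrects faulty attachments and later directs cytokinesis, and the 3 of its genes listed here had positive fold changes, none of which passed. Birc5, which encodes survivin (chromosome 11, 117849251 to 117855743), had 135 and 181 CPM in Ppm1bfl/fl, against 162 and 236 CPM in Ppm1bCKO. Only replicate 2 of Ppm1bCKO lay outside the Ppm1bfl/fl range (0.33 ± 0.23, edgeR adjusted p = 0.723). Cdca8, which encodes borealin (chromosome 4, 124918465 to 124939311), stood at 142 and 154 CPM against 163 and 181 CPM without overlap (0.22 ± 0.16). The kinase gene of the complex, Aurkb, had a log2 fold change of 0.04 ± 0.16.

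Kinesin, spindle and cytokinesis genes had fold changes of both signs, 5 positive and 6 negative of 11, with a median log2 fold change of -0.02. Nusap1, which bundles spindle microtubules (chromosome 2, 119618298 to 119651244), stood at 132 and 152 CPM against 160.0 and 170.1 CPM, without overlap (0.22 ± 0.16). Kif20a, a kinesin gene of the central spindle, had 92.2 and 99.3 CPM in Ppm1bfl/fl and 97.6 and 63.6 CPM in Ppm1bCKO. Its level in replicate 1 of Ppm1bCKO was inside the Ppm1bfl/fl range and that in replicate 2 was the lowest of the 4 (-0.25 ± 0.22). Of the exonic bases of Kif20a, 29.3% are shared with Cdc23 on the opposite strand, and because the strand setting of the counting was not given, reads there cannot be assigned with certainty. In all, 11 of the 37 genes share exonic bases with a gene on the opposite strand. Anln, which encodes the cytokinetic ring protein anillin (chromosome 9, 22332012 to 22389188), had 91.5 and 101.5 CPM against 95.8 and 79.0 CPM (-0.14 ± 0.17). Between these stood Kif11, Tpx2, Kif2c, Kif23, Hmmr, Kif4, Ckap2l and Dlgap5, at log2 fold changes from -0.13 to 0.10.

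Centromere and kinetochore genes had fold changes of both signs, 3 positive and 2 negative of 5, none of which passed. Ndc80, a subunit of the complex that grips microtubules (chromosome 17, 71496100 to 71526857), stood at 46.4 and 45.4 CPM against 51.3 and 58.6 CPM, without overlap (0.26 ± 0.17). Its partner Nuf2 and the centromeric histone gene Cenpa had log2 fold changes of 0.19 and 0.16. Cenpf, a large kinetochore protein gene (chromosome 1, 189640606 to 189688086), stood at 108 and 131 CPM against 126 and 87.3 CPM (-0.16 ± 0.21), and Cenpe, a kinesin gene of the kinetochore, had a log2 fold change of -0.12 ± 0.20. In both Cenpf and Cenpe, replicate 2 of Ppm1bCKO was the lowest library.

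Chromosome structure genes and the transcription factor genes of the programme were all lowest in Ppm1bCKO replicate 2. Mki67 (chromosome 7, 135689784 to 135716361) had 1308 and 1713 CPM in Ppm1bfl/fl, against 1506 and 929.6 CPM in Ppm1bCKO. Replicate 1 of Ppm1bCKO lay between the Ppm1bfl/fl libraries while replicate 2 lay below both (-0.31 ± 0.27, edgeR adjusted p = 0.750). Top2a (chromosome 11, 98992943 to 99024189) had 712 and 785 CPM against 803 and 706 CPM (0.01 ± 0.18). Foxm1 (chromosome 6, 128362967 to 128376146) stood at 122 and 125 CPM against 128 and 88.7 CPM (-0.19 ± 0.20), and Mybl2, which encodes B-MYB (chromosome 2, 163054687 to 163084688), at 122 and 152 CPM against 132 and 119 CPM (-0.13 ± 0.18). Except for Top2a, these fold changes were negative.

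For most of these genes the Ppm1bCKO replicates stood further apart than the genotypes did. Against the mean log2 level of the Ppm1bfl/fl libraries, the 37 genes ran from -0.05 to 0.18 in Ppm1bCKO replicate 1 (SD over genes 0.06, 33 of 37 above 0 against 50.2% of all genes tested) and from -0.69 to 0.60 in replicate 2 (SD over genes 0.31, 19 of 37 above 0). Of 6261 protein-coding genes with an average log2 CPM of at least 5, 3551 were above 0 in replicate 1 and 3299 in replicate 2. Replicate 2 was the highest library for 14 genes and the lowest for 16, together 30 of 37, where over all genes tested it was the highest or lowest for 73.9%. For 28 of the 37, the gap between the Ppm1bCKO libraries was larger than the log2 fold change. The median of the 37 was close in both, 0.06 in replicate 1 and 0.03 in replicate 2.

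**Figure D3:**
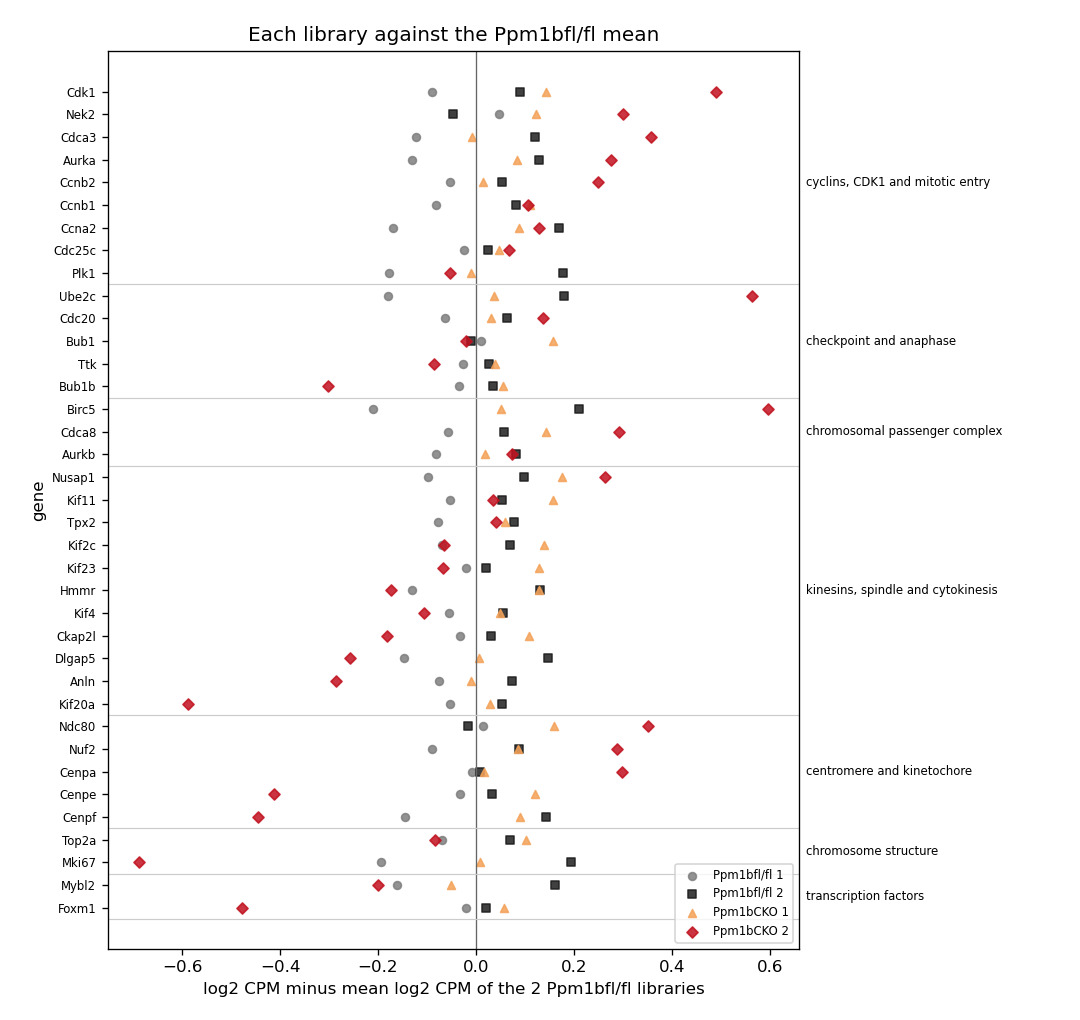
Log2 CPM of each gene in each library minus the mean of the Ppm1bfl/fl libraries, by function. Orange triangles (Ppm1bCKO replicate 1) lie between -0.05 and 0.18, and red diamonds (replicate 2) spread from -0.69 for Mki67 to 0.60 for Birc5.

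The place of a gene in replicate 2 went with its length. Exonic length, as deposited, sums every annotated exon and ran from 1531 bases for Ccnb2 to 15433 for Cenpf. The principal transcript of the GENCODE annotation is often shorter, for example 1466 bases against 5860 for Cenpa and 947 against 3402 for Birc5. Across the 37 genes, the level in replicate 2 against Ppm1bfl/fl had a Pearson correlation of -0.49 with log2 exonic length and of -0.76 with log2 principal transcript length. In replicate 1 these were 0.24 and 0.16. Replicate 1 instead went with GC content, the percentage of G and C bases in the principal transcript. That correlation was -0.55 across the 37 genes in replicate 1 and 0.13 in replicate 2. Over the 6261 protein-coding genes described below it was -0.36 and -0.03. The points share 4 libraries and one Ppm1bfl/fl mean, so the correlations are descriptions across genes. All 10 genes with a principal transcript under 2000 bases were above the Ppm1bfl/fl mean in replicate 2, by a median of 1.22-fold, among them Birc5, Ube2c, Cenpa, Ccnb2, Cdca8 and Cdc20. Of the 10 genes at 4000 bases and over, 7 were below it, among them Mki67, Cenpf, Cenpe and Foxm1, and the median of the 10 was 1.15-fold lower. Other genes showed the same gradient in replicate 2. The 6261 protein-coding genes with an average log2 CPM of at least 5 had a correlation with log2 principal transcript length of -0.62, with medians of 0.43 under 2000 bases and -0.28 at 4000 bases and over.

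**Figure D4:**
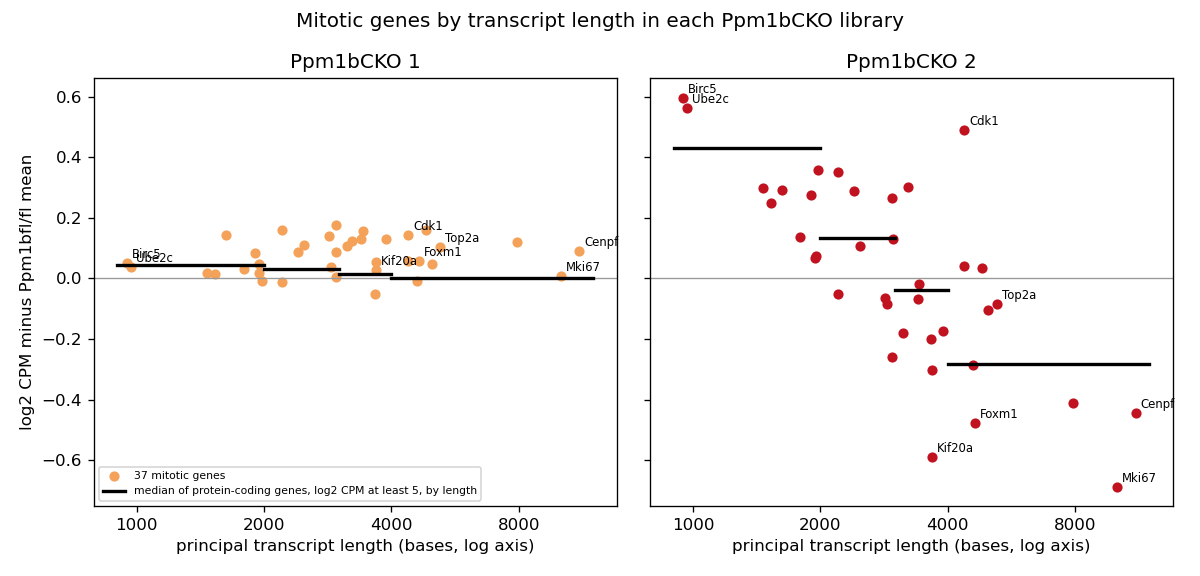
Log2 CPM minus the Ppm1bfl/fl mean against principal transcript length (log axis) for 37 mitotic genes, with replicate 1 of Ppm1bCKO on the left and replicate 2 on the right. Black lines are medians of 6261 protein-coding genes in 4 length classes, the outer classes being open-ended; in replicate 2 points and lines descend with length, and Cdk1 stands apart at 0.49.

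Order by function and order by length overlapped in this set. Median principal transcript length was 1626 bases in the chromosomal passenger genes and 2199 in the cyclin, CDK1 and entry genes, whose medians in replicate 2 were 0.29 and 0.25. It was 3674 bases in the kinesin, spindle and cytokinesis genes and 4152 in the transcription factor genes, whose medians were -0.11 and -0.34. When each library's trend with principal transcript length was removed, a step added after the data were seen, the SD of the 37 log2 fold changes went from 0.16 to 0.12 and edgeR again called 0 of them. Birc5 went from 0.33 to 0.04, Ube2c from 0.31 to 0.03 and Mki67 from -0.31 to -0.06. The median of the passenger genes went from 0.22 to 0.04. Removal of the trend with the deposited exonic length, the planned form of this step, moved the values less. It left an SD of 0.15 and log2 fold changes of 0.29 for Birc5, 0.22 for Ube2c and -0.18 for Mki67, and the median of the passenger genes was then higher, at 0.26. It also gave 0 calls among the 37. With the principal transcript trend removed, Cenpf changed sign, from -0.16 to 0.13, and Cdk1 became the highest of the 37 at 0.43, with the lowest edgeR adjusted p among them, 0.621. With the exonic trend removed these were 0.05 and 0.36. The part of library preparation or RNA quality in the gradient was not tested.

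The Ppm1bfl/fl libraries also differed in mitotic transcripts. Replicate 2 was above replicate 1 for 34 of the 37 genes. The same held for 49.6% of all genes tested, and for 3632 of the 6261 protein-coding genes with an average log2 CPM of at least 5. For the 37 the median difference was 0.14 on the log2 scale. Of the 37, Birc5 (0.42), Mki67 (0.39) and Ube2c (0.36) differed most. This gap was larger than the genotype log2 fold change for 23 of the 37 genes, and it had a correlation of -0.07 with log2 principal transcript length across the 37. The summed level of the module was 6236 and 7244 CPM in Ppm1bfl/fl with the Ppm1bCKO libraries, at 7012 and 6387 CPM, between them. Mki67 and Top2a alone supplied 2020 and 2498 CPM of these sums in Ppm1bfl/fl, and 2309 and 1635 CPM in Ppm1bCKO. The place of Ppm1bCKO replicate 2 in the sums thus leans on these genes. Markers of erythroid precursors moved the same way: all 10 were higher in Ppm1bfl/fl replicate 2. They summed to 7815 and 13351 CPM in Ppm1bfl/fl, with 11075 and 15274 CPM in Ppm1bCKO. The globin genes Hba-a1 and Hbb-bs carried the high sum of Ppm1bCKO replicate 2: the other 8 markers summed to 3254 and 5301 CPM in Ppm1bfl/fl, with 4023 and 3632 CPM in Ppm1bCKO, and 7 of these 8 were highest in Ppm1bfl/fl replicate 2. Also higher in Ppm1bfl/fl replicate 2 were 8 of 10 macrophage, 4 of 6 eosinophil and 5 of 8 mature neutrophil markers. Other lists went the opposite way. Of the 5 markers of granule-stage myeloid precursors, 0 were higher in Ppm1bfl/fl replicate 2, and they summed to 6437 and 5834 CPM in Ppm1bfl/fl. Of the 10 Lsk and stem cell markers, 0 were higher in Ppm1bfl/fl replicate 2. Markers of B cell precursors summed to 239.6 and 222 CPM in Ppm1bfl/fl, against 308 and 553 CPM in Ppm1bCKO, with a median fold change of 1.91. Both Ppm1bCKO libraries were above both Ppm1bfl/fl libraries for 9 of these 10 markers (20.6% of all genes tested), and 8 had an edgeR unadjusted p under 0.05 (6.44% of all genes tested), but 0 passed after adjustment. The part of these cells in the mitotic levels was not tested.

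No gene of the wider mitotic machinery passed either. Of 118 other genes in 7 lists, all tested, edgeR called 0 (0.372% of all genes tested). They had 68 positive and 50 negative log2 fold changes, with a median of 0.04. Only 2 of the 118 had an edgeR unadjusted p under 0.05, against 6.44% of all genes tested. Those 2 were the securin gene Pttg1, which holds separase inactive (0.60 ± 0.22, edgeR adjusted p = 0.715), and Cks2, a small CDK1-binding protein gene (0.50 ± 0.20, edgeR adjusted p = 0.717). Their principal transcripts are short, 948 and 692 bases. Among 17 genes of the anaphase-promoting complex and of factors that act with it or on it, 11 were positive (median 0.09). Ube2s and Fbxo5, which are such factors, and Cdc26 had the smallest p. Among 31 further kinetochore genes 20 were positive (median 0.08), with Mis18a at 0.50 and Spc24 at 0.42, and the long gene Kntc1 at -0.43. The 22 further kinesin and spindle genes had a median of -0.08, and Cit (-0.40), Aspm (-0.33) and Kif14 (-0.30) had the smallest p and principal transcripts of 9514, 9867 and 8943 bases. The 8 condensin genes, which compact chromosomes, had a median of -0.04, the 13 checkpoint, securin and cohesin genes 0.02, the 16 entry kinase and phosphatase genes 0.03, and the 11 MuvB and DREAM genes, which control the programme, 0.04. Genes of S phase, the stage before, had a median of 0.06 over 34 genes with 0 called and 33 of 34 higher in Ppm1bfl/fl replicate 2 than in replicate 1.

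**Figure D5:**
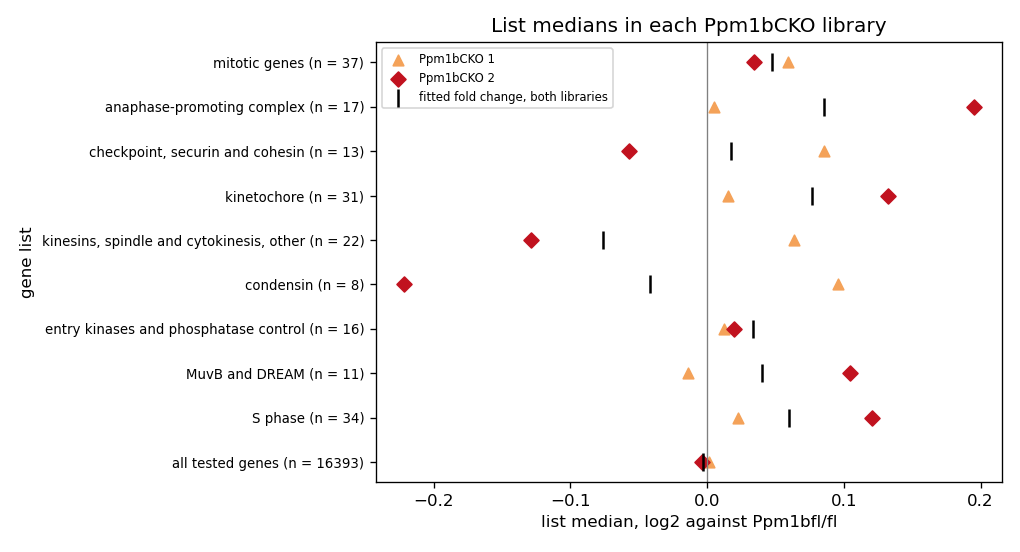
Median log2 difference from Ppm1bfl/fl for the 37 mitotic genes, 8 lists of related genes and all genes tested, in Ppm1bCKO replicate 1 (triangles), replicate 2 (diamonds) and the fit over both (ticks). Replicate 1 medians lie between -0.01 and 0.10, while replicate 2 medians run from -0.22 for condensin to 0.19 for the anaphase-promoting complex.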

How the data were processed

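Raw whole-number counts per gene were deposited for 4 libraries, with exonic lengths. Per the submitters' processing notes the authors trimmed with Trim Galore 0.6.7, and HISAT2 2.2.0 with mm10 and featureCounts 2.0.1 were also named. Per the labels' protocols, RNA came from pre-sorted cells by TRIzol and libraries from a TruSeq RNA kit. Annotation release, strand setting and handling of multiply mapped reads are not given in the sources used here. Symbols were matched for 55139 of 55399 identifiers, and principal transcripts came from GENCODE vM21 (GRCm38).

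Genotypes were compared with edgeR 4.0.16 under R 4.3.3 (TMM normalisation, filterByExpr with a minimum count of 10 and minimum total of 15, robust quasi-likelihood test, Benjamini-Hochberg over 16393 genes, threshold 0.05). Errors are standard errors, and intervals are 95%. The fit was tested on simulated counts. Alternatives were DESeq2 size factors, DESeq2 1.42.0, limma-voom 3.58.1, other filters, the replicate block, each library left out, the trend with length removed (loess span 0.3; the version with principal transcript length was chosen after seeing the data) and immunoglobulin genes left out. The genes, lists and functions were chosen with earlier results of these data known. Genes given in full were the 6 highest and 6 lowest by log2 fold change, 8 chosen by role and, outside these rules, Bub1b. Up to 3 genes with the smallest p were named per related list.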

Additional observations from a re-analysis of the deposited data

How the results depend on the processing

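The mitotic genes called numbered 0 under every alternative except that without Ppm1bCKO replicate 1. There 6 of 37 were called, where 19.4% of 17177 genes were, and replicate 2 alone stood for the genotype, assumed to vary like the other group. They were Cdk1 (0.49, edgeR adjusted p = 0.0224), Ube2c (0.55, 0.0398), Kif20a (-0.59, 0.00780), Cenpe (-0.41, 0.0410), Mki67 (-0.70, 0.0346) and Foxm1 (-0.48, 0.0216). Over the 4 fits without a library the called mitotic genes ran from 0 to 6, their median log2 fold change from -0.03 to 0.13, and the calls over all genes from 94 to 3336. All-gene calls were 61, 187 with DESeq2, 311 with no low-count filter, 207 with the replicate block, 0 without immunoglobulin genes and 6 with the principal transcript length trend removed. That last fit tested 13230 genes, 2 of them immunoglobulin genes, which had given 49 of the 61 calls. Replicate numbers pair no samples by the labels, and deviations of same-numbered samples correlated at 0.064, so the block was not used. With the block, 0 mitotic genes were called and their median log2 fold change was 0.05.

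The log2 fold change of 20 mitotic genes changed sign in at least 1 fit without a library: Aurkb (-0.039 to 0.13), Bub1 (-0.022 to 0.16), Bub1b (-0.30 to 0.053), Ccna2 (-0.065 to 0.28), Cdca3 (-0.014 to 0.35), Cenpe (-0.41 to 0.12), Cenpf (-0.45 to 0.082), Ckap2l (-0.18 to 0.11), Dlgap5 (-0.27 to 0.026), Foxm1 (-0.48 to 0.056), Hmmr (-0.18 to 0.12), Kif20a (-0.59 to 0.027), Kif23 (-0.070 to 0.13), Kif2c (-0.070 to 0.14), Kif4 (-0.11 to 0.046), Mybl2 (-0.29 to 0.037), Plk1 (-0.21 to 0.14), Top2a (-0.087 to 0.10), Tpx2 (-0.031 to 0.13), Ttk (-0.087 to 0.037). Of the genes that kept their sign, Birc5 ran from 0.034 to 0.58, Ube2c from 0.026 to 0.55, Cdk1 from 0.14 to 0.49 and Mki67 from -0.70 to -0.0049. With the exonic length trend removed 7 changed sign: Aurkb (-0.018), Ccnb2 (-0.036), Cdc20 (-0.060), Cenpf (0.054), Hmmr (0.023), Kif4 (0.020) and Ttk (0.0073). With the principal transcript length trend removed 9 did: Aurkb (-0.055), Ccnb2 (-0.031), Cdc20 (-0.036), Cdc25c (-0.042), Cenpa (-0.016), Cenpe (0.094), Cenpf (0.13), Hmmr (0.047) and Kif4 (0.090). The other alternatives changed the sign of 0 of 37. The cause of these changes was not tested beyond the fits' own construction.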

Other observations

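A few mitotic genes with long principal transcripts were high in Ppm1bCKO replicate 2, against the gradient seen in most genes, and were chosen after their values were seen. Cdk1, with a principal transcript of 4375 bases, was 0.49 above the Ppm1bfl/fl mean there on the log2 scale, a level reached by 4.57% of 4155 protein-coding genes with principal transcripts of 4000 bases or more. The annotation lists 3 protein-coding transcripts of Cdk1, from 695 to 4375 bases. Rbbp4, which encodes a histone-binding subunit of the MuvB complex, had a principal transcript of 4407 bases and stood 0.49 above that mean. Mad2l1, the checkpoint gene whose product sequesters CDC20, had one of 7557 bases and stood 0.36 above it, at 110.4 and 116 CPM in Ppm1bfl/fl and 121 and 145 CPM in Ppm1bCKO. In Ppm1bCKO replicate 1 these genes stood 0.14, 0.13 and 0.10 above the mean, and in the comparison of genotypes none passed, with edgeR adjusted p from 0.717 to 0.725. Which transcripts the reads came from cannot be read from gene counts.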
